A study of Pogona vitticeps with 24 samples.

Results

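*PTPRC*, *NCF1* and *CD74* are leukocyte genes whose RNA was measured in dental tissue of bearded dragon (*Pogona vitticeps*) hatchlings. These 3 of 11126 genes were selected on their measured values, so their own levels and differences are given as a description with no test. Epithelium of the dental lamina, the band of tissue from which teeth bud, and the mesenchyme around it were cut out by laser capture microdissection at an anterior and a posterior jaw position. In wild-type (WT) animals the anterior teeth are pleurodont (attached to the inner side of the jaw bone) and the posterior teeth are acrodont (fused to its crest). The *Sca*/+ animals carry 1 mutated copy of *EDA*, which encodes a secreted signal of skin and tooth development. How strongly each mutant's own teeth were affected was not known exactly when its tissue was cut. From a rough look beforehand, the paper proposes that all 3 mutants had the typical abnormal teeth at the front of the lower jaw. There were 24 samples in 8 groups of 3, made up of both genotypes, both compartments and both positions, all from hatchlings with no treatment named in the labels, and the authors deposited 1 value per gene and group. Each genotype was represented by 3 animals, so the compartments and positions of a genotype share animals.

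In mammals, *PTPRC* encodes CD45, a receptor tyrosine phosphatase on the surface of nearly all white blood cells, which removes an inhibitory phosphate from kinases of the Src family. *NCF1* encodes p47phox, a cytosolic subunit that assembles the superoxide-producing oxidase of neutrophils and macrophages. *CD74* encodes the invariant chain, which holds class II histocompatibility molecules until they are loaded with peptide in macrophages, dendritic cells and B cells, and which other cells can make during inflammation. Macrophages, and the osteoclasts that share their origin, take part in the resorption of bone and tooth during tooth eruption and replacement. RNA of such genes in solid tissue is commonly read as a sign of blood-derived cells within it. In such bulk samples, fewer leukocytes and less RNA per leukocyte cannot be told apart.

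Levels are log2 CPM, that is log2 of counts scaled to the size of the library. The WT posterior epithelium column was not used, since 11121 of its entries are a running series with a constant step of 1e-09, and 7 tissues remained. In each of these, all CPM values (100%, within 0.0065 CPM) were whole multiples of the smallest step of that tissue, and the tissues summed to between 789353 and 3264515 steps. Steps were taken as counts, and each value or difference carries an exact 95% interval (Clopper-Pearson) for counting error only, so it leaves out variation between animals and in amplification. The filter on low values kept the 9987 of 11126 genes that averaged 3 log2 CPM or more across tissues. Higher and lower mean a difference of at least 1 log2 unit, that is 2-fold. The labels were looked at through lists chosen with earlier results of these data known, so the counts are no independent check. In epithelium 15, 12 and 13 of 17 epithelial genes were higher in the WT anterior, *Sca*/+ anterior and *Sca*/+ posterior pairs. In the same pairs 27, 26 and 27 of 27 mesenchymal genes were lower in epithelium. Of all genes kept, 8.66%, 11.5% and 12.1% were higher and 12.7%, 14.3% and 13.7% lower in these pairs. The epithelial gene *KRT18* went the other way in the *Sca*/+ posterior pair, at -1.86 log2 units (-2.22 to -1.52).

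*PTPRC* was highest by far in WT anterior mesenchyme. Its level was 136 CPM there, against 15.6 in *Sca*/+ anterior mesenchyme, 13.9 in WT posterior mesenchyme, 11.3 in WT anterior epithelium, 6.84 in *Sca*/+ anterior epithelium, 6.8 in *Sca*/+ posterior mesenchyme and 1.24 in *Sca*/+ posterior epithelium. On the log2 scale these levels were 7.09, 3.96, 3.80, 3.50, 2.77, 2.77 and 0.31 log2 CPM, in the same order. The first level stood above the second by 3.13 log2 units (interval 2.29 to 4.11), and the last stood below the sixth by 2.46 (0.73 to 4.54). Between these ends, 5 tissues lay close together, and no 2 neighbours in the order differed beyond their counting interval. The lowest level rests on 4 steps, which is the smallest value that any gene has in that column, and the highest rests on 189.

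*NCF1* had the same tissue at the top and the same tissue at the bottom. The level in WT anterior mesenchyme was 90.9 CPM, followed by 19.8 in *Sca*/+ posterior mesenchyme, 18.5 in WT posterior mesenchyme, 15.6 in *Sca*/+ anterior mesenchyme, 12.0 in WT anterior epithelium, 8.3 in *Sca*/+ anterior epithelium and 2.18 in *Sca*/+ posterior epithelium. In log2 CPM the levels were 6.51, 4.31, 4.21, 3.96, 3.59, 3.05 and 1.12. The top level exceeded the next by 2.20 log2 units (1.65 to 2.78) and the bottom one lay 1.93 (0.59 to 3.44) below its neighbour, whereas the other neighbours were not separated by their intervals. All 4 mesenchymes thus ranked above the 3 epithelia for *NCF1*, which was not so for *PTPRC*, where *Sca*/+ posterior mesenchyme ranked below WT anterior epithelium.

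*CD74* was spread more evenly over the tissues. It reached 63.5 CPM in WT anterior mesenchyme, 48.1 in *Sca*/+ anterior mesenchyme, 39.7 in *Sca*/+ posterior mesenchyme, 36.8 in WT anterior epithelium, 23.2 in WT posterior mesenchyme, 20.2 in *Sca*/+ posterior epithelium and 10.3 in *Sca*/+ anterior epithelium. The corresponding levels were 5.99, 5.59, 5.31, 5.20, 4.53, 4.34 and 3.36 log2 CPM. Of the neighbours in this order, only the last pair was separated by its interval, with *Sca*/+ posterior epithelium above *Sca*/+ anterior epithelium by 0.98 log2 units (0.25 to 1.76). WT anterior mesenchyme again ranked first, but its level was not separated from that of *Sca*/+ anterior mesenchyme (0.40, interval -0.17 to 0.995).

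**Figure D1:**
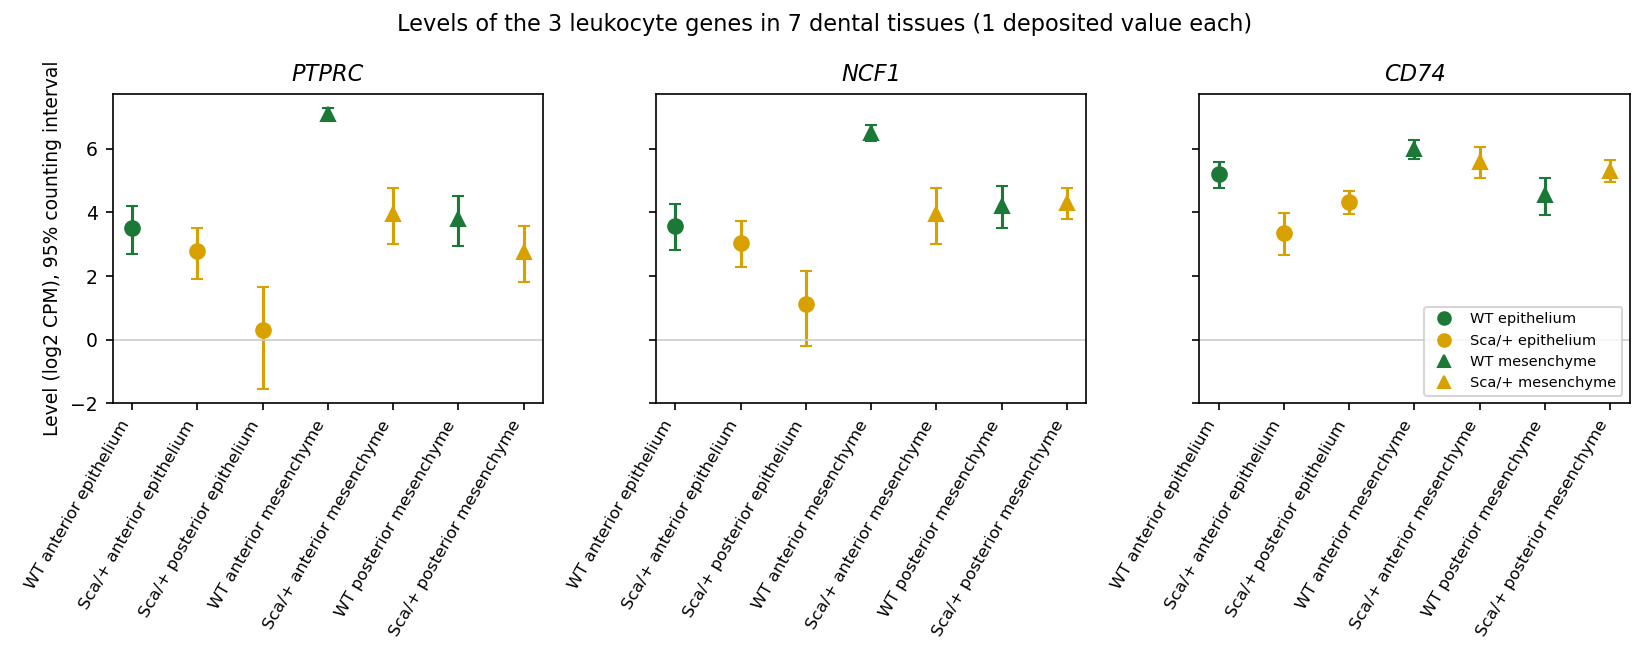
Level of *PTPRC*, *NCF1* and *CD74* (log2 CPM) in each of the 7 tissues, with 1 deposited value per tissue (points, circles for epithelium and triangles for mesenchyme) and its 95% counting interval (bars). WT anterior mesenchyme is at 7.09 for *PTPRC* and 6.51 for *NCF1*, above every other tissue, while the *CD74* levels run from 3.36 to 5.99.

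The range between the highest and the lowest tissue was 6.78 log2 units for *PTPRC*, 5.38 for *NCF1* and 2.63 for *CD74*, against a median range of 1.48 over all genes kept. A range as large was found in 14 genes (0.140%) for *PTPRC*, 78 (0.781%) for *NCF1* and 1457 (14.6%) for *CD74*. All 3 genes passed the filter on low values. *PTPRC* passed it only through its highest tissue, since its mean was 3.46 log2 CPM with WT anterior mesenchyme and 2.85 without it, and a gene kept in this way was bound to differ between tissues. The means without the highest tissue were 3.38 for *NCF1* and 4.72 for *CD74*.

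The first comparison asked how the genotype relates to leukocyte genes in anterior mesenchyme, where WT teeth are pleurodont. *PTPRC* and *NCF1* were lower in *Sca*/+ than in WT, by factors of 8.74 and 5.83, and *CD74* was not called. The differences (*Sca*/+ minus WT) were -3.13 log2 units for *PTPRC* (-4.11 to -2.29), -2.54 for *NCF1* (-3.53 to -1.69) and -0.40 for *CD74* (-0.995 to 0.17). So 2 of the 3 genes were lower and none was higher, where 8.37% of all genes kept were lower and 11.5% were higher. The *Sca*/+ values of *PTPRC* and *NCF1* rest on 12 steps each, in the shallowest of the tissues.

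In posterior mesenchyme the genotypes were closer for *PTPRC* and *NCF1*. The *Sca*/+ minus WT difference was -1.03 log2 units for *PTPRC* (-2.26 to 0.16), 0.10 for *NCF1* (-0.74 to 0.97) and 0.78 for *CD74* (0.10 to 1.50). By the rule of size *PTPRC* was lower and the other two were not called, in a comparison where 8.13% of all genes were lower and 8.82% higher, and the interval of *PTPRC* holds 0. The genotype difference at the posterior position exceeded that at the anterior one by 2.10 log2 units for *PTPRC* (0.71 to 3.48), 2.64 for *NCF1* (1.47 to 3.80) and 1.18 for *CD74* (0.31 to 2.04), with intervals for counting error alone. Its sign was negative at both positions for *PTPRC*, and negative only at the anterior one for *NCF1* and *CD74*.

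In anterior epithelium *CD74* alone was called. It was 3.59-fold lower in *Sca*/+ than in WT, with a difference of -1.84 log2 units (-2.65 to -1.09). The difference was -0.73 for *PTPRC* (-1.87 to 0.40) and -0.54 for *NCF1* (-1.60 to 0.52), both with intervals that hold 0. Here 1 of the 3 genes was lower and none was higher, beside 10% and 12.2% of all genes kept. Posterior epithelium of the genotypes was not compared, for lack of a usable WT column.

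Position was compared within each genotype. In WT mesenchyme, posterior levels were below anterior ones for all 3 genes, by 3.29 log2 units for *PTPRC* (difference -3.29, -4.16 to -2.54), with -2.29 for *NCF1* (-3.05 to -1.61) and -1.45 for *CD74* (-2.16 to -0.80). Over all genes kept, 7.97% were lower and 9.15% were higher in this comparison. In *Sca*/+ mesenchyme the posterior minus anterior difference was -1.20 for *PTPRC* (-2.48 to 0.08), 0.35 for *NCF1* (-0.64 to 1.43) and -0.28 for *CD74* (-0.87 to 0.34). Only *PTPRC* was past the rule of size there, where 10.4% of all genes were lower and 8.34% higher, and the intervals of all 3 genes hold 0.

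In epithelium of *Sca*/+ animals the sign of the difference between positions was not the same for all genes. *PTPRC* and *NCF1* were lower at the posterior position, at -2.46 (-4.52 to -0.79) and -1.93 log2 units (-3.44 to -0.59). The posterior values of *PTPRC* and *NCF1* rest on only 4 and 7 steps, and the anterior ones on 14 and 17. *CD74* differed by 0.98 (0.25 to 1.76), just short of 1 log2 unit and so not called. Of all genes kept, 6.68% were lower and 7.02% were higher.

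Compartments were compared in 3 pairs. *PTPRC* and *NCF1* were lower in epithelium than in mesenchyme by 12.0-fold and 7.55-fold in WT anterior tissue, where *CD74* was 1.72-fold lower. These differences (epithelium minus mesenchyme) were -3.59 log2 units for *PTPRC* (-4.43 to -2.85), -2.92 for *NCF1* (-3.74 to -2.18) and -0.79 for *CD74* (-1.31 to -0.28), beside 12.7% of all genes lower and 8.66% higher. In *Sca*/+ anterior tissue *CD74* had the largest difference of the 3 genes, at -2.23 (-3.08 to -1.42), with -1.19 for *PTPRC* (-2.41 to 0.05) and -0.91 for *NCF1* (-2.06 to 0.29), where 14.3% of all genes were lower and 11.5% higher. In *Sca*/+ posterior tissue the differences were -2.46 (-4.54 to -0.73), -3.19 (-4.60 to -1.99) and -0.97 (-1.48 to -0.46) for *PTPRC*, *NCF1* and *CD74*, and 13.7% of all genes were lower and 12.1% higher. The difference was below 0 for all 3 genes in all 3 pairs. The single value of WT anterior mesenchyme enters 3 of the 9 comparisons (genotype in anterior mesenchyme, position in WT mesenchyme and the WT anterior compartments), so these are not separate observations of its high level.

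**Figure D2:**
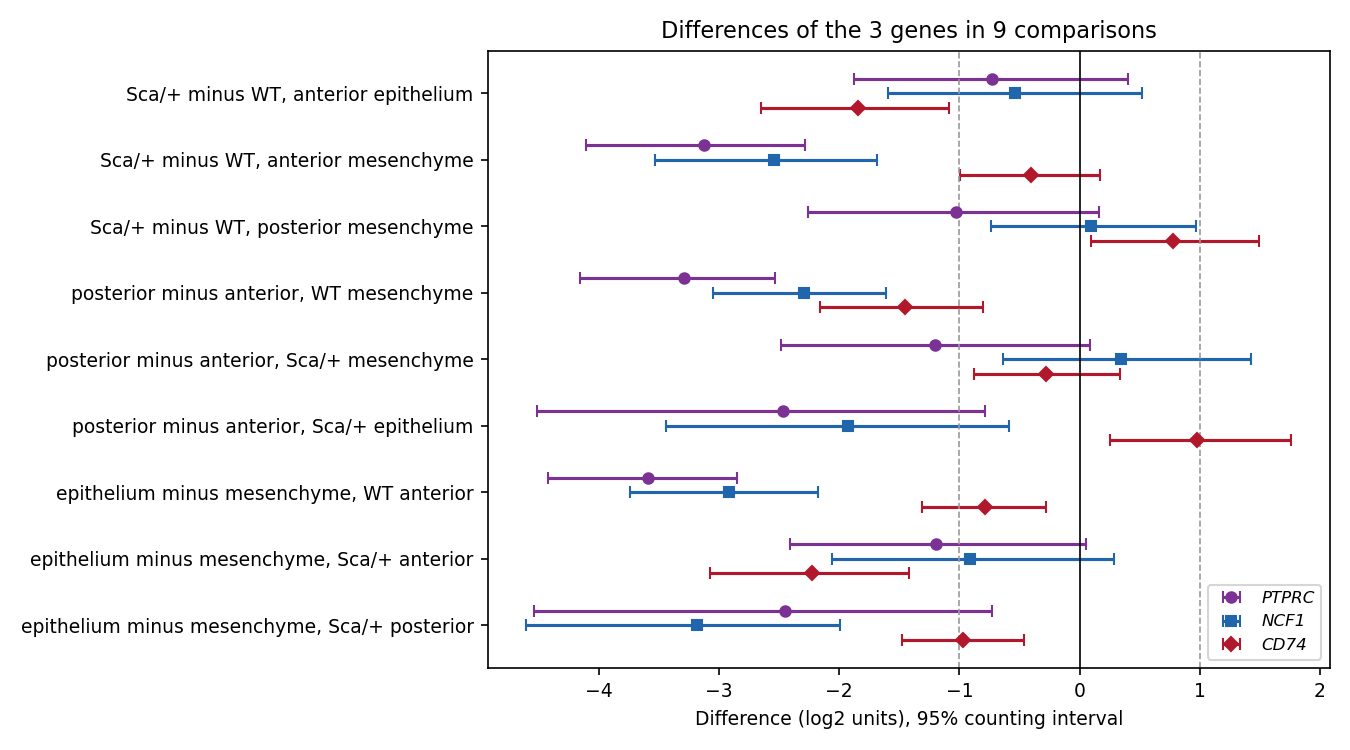
Difference in log2 units of *PTPRC*, *NCF1* and *CD74* in each of the 9 comparisons (points) with its 95% counting interval (bars), and dashed lines at 1 log2 unit. *PTPRC* and *NCF1* lie at -3.13 and -2.54 for *Sca*/+ minus WT in anterior mesenchyme, where *CD74* lies at -0.40, and *CD74* lies at -1.84 in anterior epithelium.

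Other leukocyte genes were drawn from 7 lists (pan-leukocyte genes, the phagocyte oxidase, class II antigen presentation, macrophages and osteoclasts, granulocytes and mast cells, T and NK cells, and B cells). Of 132 genes on these lists 30 were in the table and 24 were kept, the 3 genes included. The table holds only genes above 1 CPM in every usable tissue, so the other listed genes were not analysed here. *CYBA*, *CD14* and *FGR* were found through their RefSeq gene numbers. Like *PTPRC*, *DOCK2* and *TNFRSF11A* were kept only through their highest tissue. The lists were chosen with earlier results of these data known, and counts over them describe these tissues.

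WT anterior mesenchyme was the highest of the 7 tissues for 9 of the 24 leukocyte genes kept, or 6 of 21 without *PTPRC*, *NCF1* and *CD74*, and it was the highest for 11.3% of all genes kept. The 6 were *PTPN6*, *DOCK2*, *ITGB2*, *CSF1R*, *MMP9* and *FGR*. *PTPRC* and *DOCK2* passed the filter only through this tissue, so their part of the count was set by the filter. It was the lowest tissue for none of the 24, against 15.4% of all genes. *Sca*/+ posterior epithelium was the lowest tissue for 7 of the 24 (5 of 21 without the 3 genes), against 11.4% of all genes.

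The pan-leukocyte genes with the largest ranges after *PTPRC* were *DOCK2*, *SPI1* and *NCKAP1L*, all highest in WT anterior mesenchyme. *DOCK2*, an activator of the GTPase Rac in migrating white blood cells, was at 3.67, 0.96 and 1.12 log2 CPM in WT anterior, *Sca*/+ anterior and *Sca*/+ posterior epithelium, and at 5.90, 3.96, 3.98 and 3.57 in WT anterior, *Sca*/+ anterior, WT posterior and *Sca*/+ posterior mesenchyme. *SPI1*, which encodes the myeloid transcription factor PU.1, was at 2.31, 0.56 and 1.49 in the epithelia and at 5.44, 2.70, 2.89 and 2.18 in the mesenchymes, in the same order. Its value in *Sca*/+ anterior epithelium is the smallest that any gene has in that column. *NCKAP1L*, a blood cell subunit of the WAVE actin complex, was at 2.50, 0.96 and 0.90 in the epithelia and at 5.44, 4.19, 3.48 and 3.27 in the mesenchymes. In anterior mesenchyme these 3 genes differed between *Sca*/+ and WT by -1.94 (-2.95 to -1.06), -2.74 (-4.41 to -1.43) and -1.25 log2 units (-2.20 to -0.39). *SPI1* and *NCKAP1L* were below the filter on low values and enter no count. *CD37* and *ARHGDIB*, also on the pan-leukocyte list, were nearly level across the tissues, with ranges of 0.74 and 1.08 log2 units.

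The oxidase list offered 1 partner of *NCF1*. *CYBA*, the p22phox chain of the membrane part of the oxidase, was low in all tissues, between 1.18 and 2.70 log2 CPM, and its difference between *Sca*/+ and WT anterior mesenchyme was 0.00 log2 units (-1.92 to 1.73). That interval overlaps the one of *NCF1* (-3.53 to -1.69), but overlap alone does not tell if differences are separated. The difference between *CYBA* and *NCF1* was not tested. *CYBA* was below the filter on low values.

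Class II genes besides *CD74* did not share one order of tissues. *LGMN*, a lysosomal protease that cuts the invariant chain in mammals, was at 4.93, 4.05 and 5.39 log2 CPM in WT anterior, *Sca*/+ anterior and *Sca*/+ posterior epithelium and at 5.64, 5.87, 5.59 and 6.21 in WT anterior, *Sca*/+ anterior, WT posterior and *Sca*/+ posterior mesenchyme. It was lowest in *Sca*/+ anterior epithelium, as *CD74* was, and highest in *Sca*/+ posterior mesenchyme. Of the other class II genes kept, *RFXAP* was also lowest in *Sca*/+ anterior epithelium (4.61), whereas *RFX5* was highest there (4.80). The *Sca*/+ minus WT difference of *RFX5* in anterior epithelium was 1.13 log2 units (0.34 to 1.98), opposite in sign to that of *CD74*. *IFI30*, a lysosomal thiol reductase, was between 1.50 and 4.05, highest in WT anterior mesenchyme, and *CD40*, a receptor on antigen-presenting cells, was between 0.96 and 4.29, highest in *Sca*/+ anterior mesenchyme. Both were below the filter.

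The macrophage genes *C1QA*, *CD14* and *CSF1R*, the last chosen after its values were seen, were higher at the anterior position in mesenchyme of both genotypes, which was not so for every gene of their list. *C1QA*, a chain of complement C1q, was at 5.23 log2 CPM in WT and 5.74 in *Sca*/+ anterior mesenchyme, at 2.70 and 4.43 in WT and *Sca*/+ posterior mesenchyme, and between 1.90 and 2.67 in the epithelia. *CD14*, a receptor for bacterial lipopolysaccharide, was at 5.51 and 6.02 in the WT and *Sca*/+ anterior mesenchymes, at 2.48 and 3.88 in the posterior ones, and between 3.12 and 3.50 in the epithelia. *CSF1R*, the receptor for the growth factor of macrophages, was at 7.05 and 6.92 in the anterior and at 5.87 and 5.56 in the posterior mesenchymes. For each of the 3 genes, both anterior mesenchymes lay above both posterior ones.

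Between genotypes in anterior mesenchyme, *CSF1R*, *C1QA* and *CD14* differed by -0.13 (-0.51 to 0.23), 0.51 (-0.12 to 1.13) and 0.52 log2 units (-0.05 to 1.08). Each of these intervals lies above those of *PTPRC* and *NCF1*. *PTPRC* and *NCF1* were selected on their measured values, so this gap is a description and no test. Posterior minus anterior, *CSF1R*, *C1QA* and *CD14* differed by -1.19, -2.53 and -3.03 in WT mesenchyme. In *Sca*/+ mesenchyme they differed by -1.36, -1.31 and -2.14, and the 6 intervals leave out 0. In posterior mesenchyme *C1QA* and *CD14* were higher in *Sca*/+ than in WT, by 1.73 (0.55 to 3.14) and 1.41 log2 units (0.09 to 2.98). *MMP9*, a gelatinase that osteoclasts and neutrophils secrete, had a different pattern, with 7.05, 6.45, 7.04 and 3.43 log2 CPM in WT anterior, *Sca*/+ anterior, WT posterior and *Sca*/+ posterior mesenchyme. *CTSK*, the collagen-degrading protease of osteoclasts, was at 7.82, 8.63, 8.86 and 8.39 and *ACP5*, their acid phosphatase, at 6.80, 5.90, 6.87 and 6.17, in the same order. *TNFRSF11A*, the receptor RANK that drives osteoclast formation, was highest in WT anterior epithelium, at 4.50. In mesenchyme it too was higher at the anterior position, at 3.62 in WT and 3.84 in *Sca*/+, against 1.89 and 0.77 at the posterior one. Posterior minus anterior, it differed by -1.73 (-3.76 to -0.11) in WT and by -3.07 log2 units (-5.55 to -1.15) in *Sca*/+ mesenchyme.

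**Figure D3:**
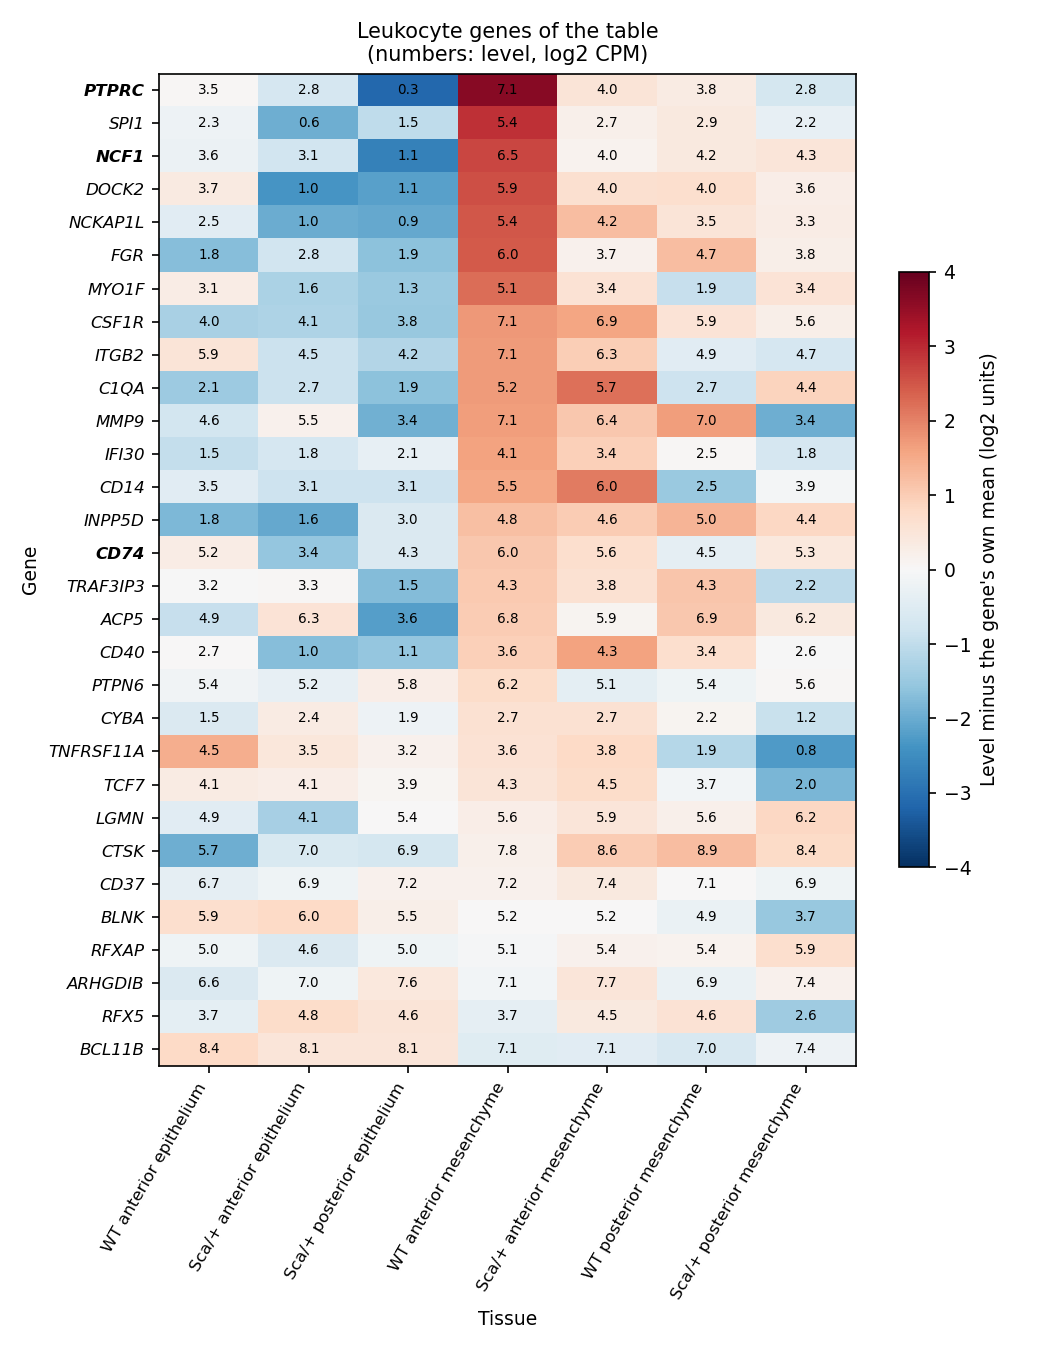
Level (log2 CPM, printed in each cell) of the 30 leukocyte genes of the table in the 7 tissues, with colour for the level minus the gene's own mean over the tissues (log2 units) and the 3 genes in bold. *PTPRC*, *SPI1*, *NCF1* and *DOCK2* are deepest red in WT anterior mesenchyme alone, whereas *C1QA* (5.23 and 5.74) and *CD14* (5.51 and 6.02) are high in both anterior mesenchymes.

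The genotype counts over leukocyte genes were as follows. In anterior mesenchyme 5 of 24 were lower in *Sca*/+ and none was higher (8.37% and 11.5% of all genes), and without *PTPRC*, *NCF1* and *CD74* 3 of 21 were lower, with a median difference of 0.01 log2 units beside 0.04 over all genes. *DOCK2* is 1 of these 3, and it passed the filter only through WT anterior mesenchyme. Without the filter on low values, 8 of 30 were lower, a count for which the share of all genes was not computed. In posterior mesenchyme 7 of 24 were lower and 2 higher (6 and 2 of 21 without the 3 genes), beside 8.13% and 8.82% of all genes, and the median was -0.41 without them. In anterior epithelium 4 were lower and 3 higher (3 and 3 of 21), beside 10% and 12.2% of all genes, with a median of 0.07 without the 3 genes. *TNFRSF11A* is 1 of the lower genes there, at -1.01 log2 units. It passed the filter only through WT anterior epithelium, so it entered the count only because of its level in that tissue.

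Posterior minus anterior, 10 of 24 leukocyte genes were lower and 1 was higher in WT mesenchyme (7.97% and 9.15% of all genes), or 7 and 1 of 21 without the 3 genes, with a median of -0.16 beside 0.04 over all genes. *DOCK2* is 1 of these 7, and it passed the filter only through WT anterior mesenchyme, so it entered the count only because of its level in that tissue. In *Sca*/+ mesenchyme 11 of 24 were lower and none was higher (10.4% and 8.34% of all genes), or 10 of 21, with a median of -0.55. In *Sca*/+ epithelium 5 were lower and 2 higher (6.68% and 7.02% of all genes), or 3 and 2 of 21, with a median of -0.19.

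Between compartments in WT anterior tissue, 13 of 24 leukocyte genes were lower in epithelium and 1 was higher (12.7% and 8.66% of all genes), or 11 and 1 of 21 without the 3 genes, with a median of -1.08 log2 units. *DOCK2* is 1 of these 11, and it again entered the count only because of its level in WT anterior mesenchyme, through which alone it passed the filter. In *Sca*/+ anterior tissue 10 were lower and none was higher (14.3% and 11.5% of all genes), or 8 of 21, with a median of -0.77. In *Sca*/+ posterior tissue 9 were lower and 4 higher (13.7% and 12.1% of all genes), or 7 and 4 of 21, with a median of -0.69. The median over all genes was between 0.04 and 0.06 in these comparisons.

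The lists are too short to be set apart from each other by their counts. Between *Sca*/+ and WT anterior mesenchyme, 3 of 8 pan-leukocyte genes were lower (*PTPRC* and *DOCK2*, which passed the filter only through WT anterior mesenchyme, and *PTPN6*), with none of 4 class II genes, none of 7 macrophage and osteoclast genes and none of the 3 T, NK and B cell genes past the rule in either direction, beside 8.37% of all genes lower. Posterior minus anterior in WT mesenchyme, 3 of 8 pan-leukocyte genes (*PTPRC* and *DOCK2* among them) and 1 of 4 class II genes (*CD74* itself) were lower. So were 4 of 7 macrophage and osteoclast genes, beside 7.97% of all genes lower and 9.15% higher. *CTSK* was higher by 1.04 log2 units, a call that was lost after centring on the median of all genes. No T, NK or B cell gene was past the rule there. In the *Sca*/+ mesenchymes 3 of 8, 1 of 4 and 5 of 7 genes of these 3 lists were lower at the posterior position. None was higher, and over all genes 10.4% were lower and 8.34% higher. *TCF7*, from the T and NK cell list, and *BLNK*, from the B cell list, were lower there too. Their differences were -2.56 (-4.06 to -1.23) and -1.53 log2 units (-2.39 to -0.69). In *Sca*/+ posterior tissue both had more RNA in epithelium than in mesenchyme, by 1.91 (0.76 to 3.30) and 1.75 log2 units (1.11 to 2.45). It was not tested if their RNA came from lymphocytes.

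Substrates and partners of CD45 were looked at through Src family kinases and their regulators, of which 10 of 16 were in the table and all 10 were kept. *FGR*, a kinase of myeloid cells, was at 5.97 log2 CPM in WT anterior mesenchyme, 3.70 in *Sca*/+ anterior, 4.75 in WT posterior and 3.77 in *Sca*/+ posterior mesenchyme, and between 1.82 and 2.77 in the epithelia. *LYN*, a kinase of B cells and myeloid cells, was at 5.82, 4.19, 4.41 and 5.22 in the mesenchymes in that order. *FYN*, which many tissues express, was at 6.45, 6.40, 6.87 and 6.82.

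In anterior mesenchyme *FGR* and *LYN* were lower in *Sca*/+ than in WT, by -2.27 (-3.38 to -1.32) and -1.63 log2 units (-2.56 to -0.80), as was *PTPRJ*, a receptor phosphatase that also acts on Src kinases, at -1.40 (-2.43 to -0.48). For *FYN* the difference was -0.05 (-0.50 to 0.40). These were the 3 lower genes of the 10, whose median difference was -0.79, and none was higher, beside 8.37% and 11.5% of all genes. In WT mesenchyme 4 of the 10 were lower at the posterior position and none was higher, beside 7.97% and 9.15%. *FGR* is also on the granulocyte and mast cell list, so it is among the lower leukocyte genes of both comparisons as well.

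Of class I processing genes 4 of 10 and of chemokine and adhesion genes 6 of 24 were kept, and none of either was past the rule between the genotypes in anterior mesenchyme, while 2 of each were lower at the posterior position in WT mesenchyme, beside 7.97% of all genes. *B2M*, the light chain of class I molecules, was at 5.41 log2 CPM in WT anterior mesenchyme, 4.84 in *Sca*/+ anterior, 4.14 in WT posterior and 4.27 in *Sca*/+ posterior mesenchyme, and at 4.09, 2.87 and 1.32 in WT anterior, *Sca*/+ anterior and *Sca*/+ posterior epithelium. It had the highest and the lowest tissue of *PTPRC* and *NCF1*. *VCAM1*, an adhesion molecule that binds white blood cells, and *ITGA4*, a chain of its integrin receptor, were also highest in WT anterior mesenchyme, at 6.01 and 6.45, but in *Sca*/+ anterior mesenchyme they were at 5.33 and 6.05. Both were lowest in *Sca*/+ anterior epithelium, at 0.56 and 1.97, where *CD74* had its lowest level too. The *VCAM1* value there is the smallest that any gene has in that column.

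Likeness to each gene was measured over the 7 tissues as the root mean square (RMS) difference of log2 levels after each gene's own mean was subtracted. Neighbours were named only from genes with a symbol in the deposited data. The 5 nearest of these to *PTPRC* were *C7* (0.54 log2 units), *CEMIP* (0.59), *TNFRSF14* (0.60), *NCF1* (0.62) and *TIMP1* (0.63), against 1.95 for the median gene. *C7* encodes a terminal complement component, *CEMIP* a hyaluronan-degrading protein, *TNFRSF14* a receptor of lymphocytes and other cells, and *TIMP1* an inhibitor of metalloproteinases. *NCF1* was nearest to *CKB* (0.39), *C7* (0.46), *DUSP1* (0.53), *TNFRSF14* (0.54) and *B2M* (0.57), with 1.59 for the median gene. *CKB* encodes a creatine kinase and *DUSP1* an immediate early phosphatase, so the nearest profiles were not all those of leukocyte genes.

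*CD74* had other neighbours, namely *DEAF1* (0.29), *KCTD15* (0.32), *ADAMTS10* (0.32), *NPL* (0.32) and *TMTC4* (0.33), with 0.98 for the median gene. Ranks were taken over 9986 genes, those without a symbol included. *PTPRC* ranked 9451 and *NCF1* 7111 in likeness to *CD74*, whereas *NCF1* ranked 4 for *PTPRC* and *PTPRC* ranked 8 for *NCF1*. In the other direction *CD74* ranked 429 for *PTPRC* and 428 for *NCF1*. The distances were 1.50 from *CD74* to *PTPRC* and 1.13 to *NCF1*, below the median gene's distance from *PTPRC* (1.95) and *NCF1* (1.59) and above its distance from *CD74* (0.98). This measure keeps the size of each gene's range, so a gene of small range such as *CD74* is far from genes of large range. All genes of a tissue come from the same column, so likeness over 7 values is a description.

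Markers of other cell types moved with the tissues as well. Among the 4 mesenchymes, WT anterior mesenchyme had the lowest summed level of the 27 mesenchymal genes (63622 CPM, against 91331 to 172314 in the others) and of the 8 endothelial genes (1158, against 1417 to 2825). Such sums weigh the most abundant genes most. The list medians were lowest there too, at 9.97 log2 CPM (against 10.62 to 11.16) and 5.52 (against 6.31 to 6.64). Not every gene followed, since *FN1*, *PDGFRA* and the endothelial gene *CLDN5* were highest in WT anterior mesenchyme. In WT mesenchyme, posterior minus anterior, the median was 0.97 log2 units for the 7 endothelial genes kept, with 3 higher and none lower. It was 1.89 for the 6 bone and dentin genes, with 5 higher and none lower, beside 9.15% and 7.97% of all genes. *PTPRC*, *NCF1* and *CD74* differed in the other direction. Between *Sca*/+ and WT anterior mesenchyme these medians were 0.55 and 0.91. *ACTA1*, the one skeletal muscle gene in the table, was at 2.99 log2 CPM in WT anterior, 4.55 in *Sca*/+ anterior, 8.03 in WT posterior and 8.01 in *Sca*/+ posterior mesenchyme. The part of tissue composition in the leukocyte differences was not tested, and none of the 11 red cell and thrombocyte genes listed was analysed here.

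**Figure D4:**
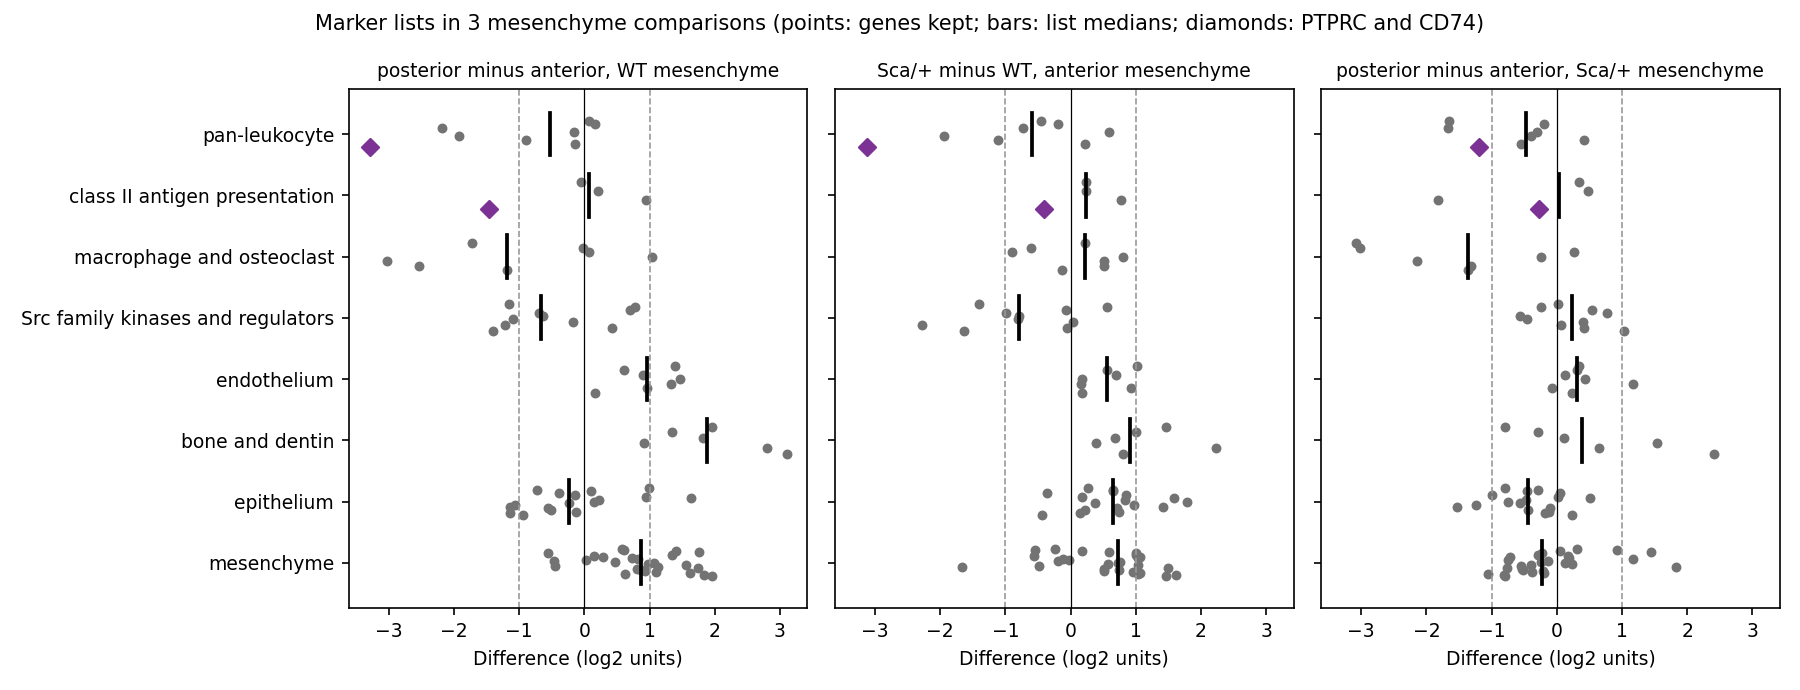
Difference in log2 units of the genes kept of 8 marker lists (points) and each list's median (bars) in 3 mesenchyme comparisons, with diamonds for *PTPRC* and *CD74* and dashed lines at 1 log2 unit. In WT mesenchyme, posterior minus anterior, *PTPRC* is at -3.29 and the macrophage and osteoclast median at -1.19, while the endothelial median is at 0.97 and that of bone and dentin at 1.89.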

How the data were processed

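RNA of laser-captured dental tissue was sequenced by the authors from rRNA-depleted NuGEN Ovation SoLo libraries, trimmed with Trimmomatic, aligned and counted with STAR, and normalized for edgeR. Versions and genome build are not given in the sources used here. The authors deposited log2 CPM values, named as means, in 1 column for each of 8 groups. It could not be told if a column is 1 library or pools reads, and values of single animals were not used here, so the edgeR test of the study was not run and there is no replicate error. Gene names follow the deposited table. Of 1662 rows with a LOC number, 323 have a symbol in the RefSeq annotation of assembly PviZW2.1, which was used for names only.

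Differences, exact intervals and RMS distances were computed with numpy 2.4.6, scipy 1.17.1 and pandas 2.3.3 in Python 3.11.15 and tested on simulated data, and plots were drawn with matplotlib 3.10.9. The interval of a difference between differences takes counting error as log-normal. The 3 genes and the 17 lists were chosen with earlier results of these data known. Besides them, the text names the 5 nearest genes with a symbol of each, and up to 4 genes of each leukocyte or related list by range. It also names genes chosen after their values were seen (*CSF1R*, *CTSK*, *ACP5*, *CD37*, *ARHGDIB*, *RFXAP*, *RFX5*, *KRT18* and those highest in WT anterior mesenchyme). Alternatives tried were to drop the filter, to raise it to 5 log2 CPM, a pseudocount of 1 CPM, centring on the median of all genes, and a call that also needs an interval leaving out 0.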

Additional observations from a re-analysis of the deposited data

How the results depend on the processing

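With 1 value per group, no difference has a replicate check, and the depth limits low values most. All 27 differences of *PTPRC*, *NCF1* and *CD74* stayed within their counting intervals with a pseudocount of 1 CPM and after centring on the median of all genes. Centring shifted them by at most 0.0605. Differences near 1 log2 unit did not all keep their side of it. *PTPRC* between genotypes in posterior mesenchyme (-1.03) fell short of it with the pseudocount. *CD74* between compartments of *Sca*/+ posterior tissue (-0.97) passed it after centring. The 18 counts of leukocyte genes stayed within 1.5 times with the pseudocount and where the interval also had to leave out 0. Without a filter, 8 leukocyte genes were lower in *Sca*/+ in anterior epithelium and 8 in anterior mesenchyme. Centring left 0 higher at the posterior position in WT mesenchyme. A filter at 5 log2 CPM kept 12 of the leukocyte genes. By genotype 1 was then lower in anterior epithelium, 1 in anterior mesenchyme and 2 in posterior mesenchyme, where 0 were higher. By position 2 were lower in WT mesenchyme, 4 in *Sca*/+ mesenchyme and 2 in *Sca*/+ epithelium, where 1 was higher. Between compartments 5 were lower in WT anterior, 4 in *Sca*/+ anterior and 3 in *Sca*/+ posterior epithelium, where 1 was higher. The counts of lower genes fell by a larger factor than the genes kept, which went from 24 to 12. The share of all genes past the rule was not computed at this filter or without a filter. No paired analysis was possible because the columns hold groups and carry no replicate number, and leaving out each replicate was not run for the same reason.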

Other observations

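Of the genes named for lymphocytes, *BCL11B* and *BLNK* were at a higher level in the 3 epithelia than in the 4 mesenchymes. *BCL11B*, a transcription factor of T cells that mammalian skin and tooth epithelium also express, was at 8.41, 8.08 and 8.09 log2 CPM in WT anterior, *Sca*/+ anterior and *Sca*/+ posterior epithelium and between 6.97 and 7.40 in the mesenchymes. *BLNK*, an adaptor of the B cell receptor, was at 5.90, 6.02 and 5.45 in the epithelia and between 3.70 and 5.24 in the mesenchymes. *TCF7*, which T cells and cells responding to Wnt signals express, was between 3.70 and 4.55 in 6 tissues and at 1.99 in *Sca*/+ posterior mesenchyme. In posterior mesenchyme *TCF7* and *BLNK* were lower in *Sca*/+ than in WT, by -1.71 (-3.26 to -0.31) and -1.23 log2 units (-2.07 to -0.42), where *PTPRC* differed by -1.03.

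*MIF*, a cytokine that binds CD74 in mammals, was at 2.67, 3.77 and 3.93 log2 CPM in the epithelia in the order above and at 2.99, 3.38, 1.89 and 2.64 in WT anterior, *Sca*/+ anterior, WT posterior and *Sca*/+ posterior mesenchyme. Its highest tissue was *Sca*/+ posterior epithelium, where *CD74* was the second lowest, but neither gene was separated there from its nearest rank. *MIF* stood 0.16 log2 units (-0.54 to 0.88) above its level in *Sca*/+ anterior epithelium. *CD74* lay 0.20 (-0.53 to 0.88) below its level in WT posterior mesenchyme. *CXCL14*, a chemokine of epithelia, was higher in epithelium than in mesenchyme by 1.06 (0.67 to 1.46), 1.83 (1.34 to 2.37) and 1.89 log2 units (1.52 to 2.27) in the WT anterior, *Sca*/+ anterior and *Sca*/+ posterior pairs.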
